A study of Mus musculus with 8 samples.

Results

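Platelet-derived growth factor (PDGF) signalling was followed through 6 genes, the receptors Pdgfra and Pdgfrb and the ligands Pdgfa, Pdgfb, Pdgfc and Pdgfd, in stromal cells sorted by surface PDGFRα. The genes were taken by name from the table of 53801 genes, and all 6 were found. The cells came from the small intestine of mice named LTβRfloxPDGFRα/YFP in the labels, that is, with a floxed lymphotoxin β receptor gene. They were CD45- CD31- and YFP+, and were sorted as YFP+PDGFRα- or YFP+PDGFRα+, with 4 RNA-seq libraries each. The driver of YFP, the state of the floxed gene and the age of the mice are not stated in those labels, and every library carries the same named alleles. Same-numbered libraries of both groups are called a pair below, although the labels do not say what they share or whether they came from separate mice, so a p-value reflects the spread of these libraries alone, which may be technical.

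PDGF ligands are secreted dimers that bind and join receptor tyrosine kinases on mesenchymal cells. PDGF-A and PDGF-C act through PDGFRα, PDGF-B binds both receptors, and PDGF-D acts mainly through PDGFRβ. PDGF-C and PDGF-D are released in a latent form and need a protease to free the growth factor. In the intestine, epithelial PDGF-A signals to PDGFRα+ fibroblasts under the epithelium, and endothelial PDGF-B recruits PDGFRβ+ pericytes.

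Library totals ran from 12.9 to 35.1 in units of 1e+06 counts. Levels are given as CPM, counts per 1e+06 of TMM-scaled library size, and levels of different genes are compared as CPM per kilobase of exon. The 5 fibroblast markers (Col1a1, Col1a2, Col3a1, Dcn and Lum) summed to 117395 to 166436 CPM in PDGFRα- and 86781 to 112413 CPM in PDGFRα+ libraries, so the labelled stromal identity had its defining RNA in every library. Ptprc, the CD45 gene, lay at 0.804 to 24.5 CPM and Pecam1, the CD31 gene, at 4.63 to 132 CPM. Foxl1, a marker of the PDGFRα-high fibroblasts called telocytes, was listed at 0 in every library. The other 5 markers of that list (Bmp5, Bmp7, Wnt5a, F3 and Sox6) were detected, and the list summed to 93.9 to 168 CPM. Of 15643 genes tested with edgeR without a block, 0.243% passed an adjusted p of 0.05, and 2.27% did once a block for the replicate number was added. The authors' deposited comparison matched a model with the number and not one with the group alone, so the blocked value is given where it changes a call.

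The sort marker and the other PDGF receptor both had abundant RNA in both fractions, and neither differed past the threshold. Pdgfra (ENSMUSG00000029231, chromosome 5, 75152292 to 75198215, plus strand, GRCm38) stood at 721, 750, 663 and 475 CPM in PDGFRα- libraries 1 to 4 and at 610, 656, 624 and 497 CPM in PDGFRα+ libraries 1 to 4. The groups overlapped fully, and library 4 was the lowest of each group. Libraries sorted as lacking the surface receptor and those sorted as carrying it shared most of their range for this RNA, and edgeR put PDGFRα+ over PDGFRα- at -0.13 ± 0.17 on the log2 scale (SE, adjusted p = 0.971). The interval of that difference ran from -0.50 to 0.24. Exons of Pdgfra overlap Gm42802 and Gm42803 on the other strand by 456 and 166 bases, and the strand setting of the counting is unknown here, so reads of the overlap cannot be assigned.

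Pdgfrb (ENSMUSG00000024620, chromosome 18, 61045150 to 61085061, plus strand), which encodes the receptor typical of pericytes, stood at 208, 303, 228 and 213 CPM in PDGFRα- libraries 1 to 4. In PDGFRα+ libraries 1 to 4 it stood at 198, 287, 244 and 173 CPM. Library 2 was the highest of each group, and the groups overlapped. On the log2 scale PDGFRα+ lay -0.08 ± 0.19 from PDGFRα- (SE, edgeR adjusted p = 0.989), and the interval ran from -0.48 to 0.32. The sign turned without PDGFRα- library 2 (0.059) and without PDGFRα+ library 4 (0.033). The summed pericyte markers, led by Rgs5, also overlapped, at 826 to 1597 CPM in PDGFRα- and 687 to 1240 CPM in PDGFRα+ libraries. Of these markers Higd1b was listed at 0, and none of 5 tested was called without the block while 2 were called with it (edgeR), Cspg4 as higher (log2 fold change 1.17 ± 0.26 SE) and Abcc9 as lower (-1.40 ± 0.23 SE). Of all tested genes edgeR called 0.243% without the block and 2.27% with it.

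Per kilobase of exon, Pdgfra exceeded Pdgfrb 1.22-fold to 1.89-fold in the PDGFRα- and 1.25-fold to 1.68-fold in the PDGFRα+ libraries. Pdgfra was the higher receptor in 8 of 8 libraries. The mean ratio was 1.51 ± 0.30 in PDGFRα- and 1.48 ± 0.19 in PDGFRα+ libraries (SD, n = 4 each), a difference smaller than either SD.

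**Figure D1:**
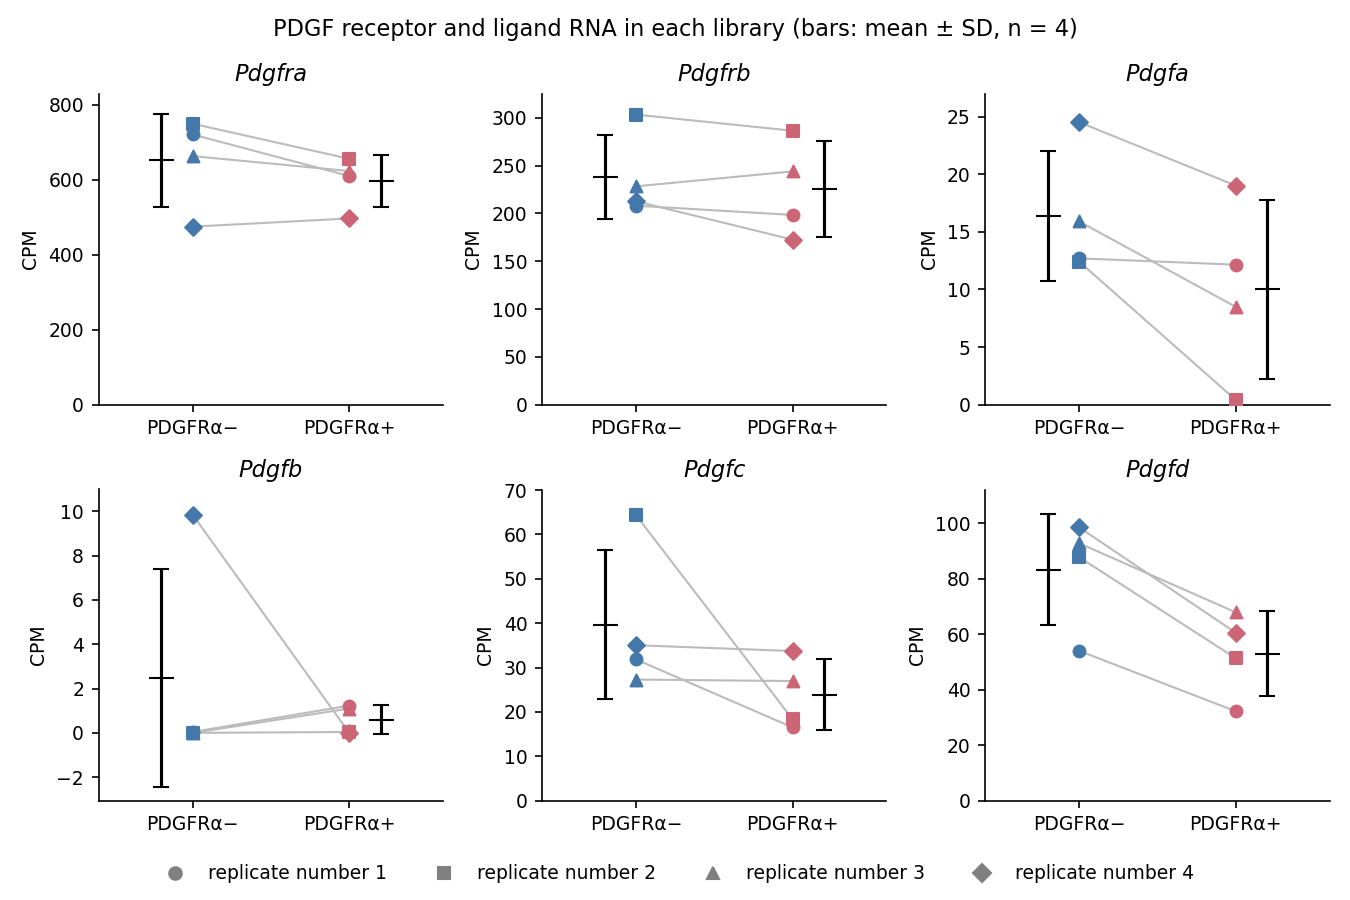
Level of each PDGF gene in CPM (vertical axes) in PDGFRα- and PDGFRα+ libraries, with lines joining libraries of the same number and black bars for the mean ± SD (n = 4). Pdgfra and Pdgfrb overlap between the fractions, Pdgfd falls along all 4 lines, and Pdgfb rests on PDGFRα- library 4.

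The ligand genes Pdgfa, Pdgfc and Pdgfd were lower in the PDGFRα+ library of all 4 pairs, as 10.2% of all tested genes were. Without a block edgeR called none of the 5 members tested, where 0.0511% of all genes were called lower. Pdgfc and Pdgfd had an unadjusted p under 0.05, both lower, against 6.95% of all genes in either direction and 3.22% in that one. DESeq2 and limma-voom without the block called 0 members, where they called 1.37% and 0.192% of all genes tested. With the block edgeR called 1, Pdgfd, where it called 2.27% of all genes in either direction and 0.933% as lower. The groups overlapped for all 6 members, while 5.05% of tested genes had groups without overlap, 2.36% as lower. Pdgfb failed the filter on low counts and was not tested.

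Pdgfd (ENSMUSG00000032006, chromosome 9, 6168584 to 6378850, plus strand) encodes PDGF-D, the ligand of PDGFRβ that circulates in latent form. It stood at 54.0, 87.8, 92.8 and 98.5 CPM in PDGFRα- libraries 1 to 4 and at 32.2, 51.3, 67.9 and 60.5 CPM in PDGFRα+ libraries 1 to 4. The groups overlapped only through PDGFRα- library 1, which was low, as was its PDGFRα+ partner. Within pairs 1 to 4, Pdgfd was 1.68-fold, 1.71-fold, 1.37-fold and 1.63-fold higher in the PDGFRα- library. The group means were 83.3 ± 19.998 and 53.0 ± 15.4 CPM (SD, n = 4). Without the block edgeR gave a log2 difference of -0.65 ± 0.24 (SE, adjusted p = 0.489, unadjusted p = 0.0179). With the block it was -0.67 ± 0.14 (SE, edgeR adjusted p = 0.0198), a call that 0.933% of tested genes shared in that direction. The authors' deposited table lists a log2 fold change of -0.68 and an adjusted p of 0.00146 for it, where 4.82% of its genes pass 0.05, 2.52% as lower, and no other member does. The blocked call was lost without number 1, 3 or 4 (edgeR adjusted p = 0.0974, 0.0871 and 0.0690), at log2 fold changes of -0.64, -0.74 and -0.66. It held without number 2, at -0.63 (edgeR adjusted p = 0.0486).

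Pdgfc (ENSMUSG00000028019, chromosome 3, 81036416 to 81214040, plus strand), the gene of the latent PDGFRα ligand PDGF-C, stood at 31.8, 64.4, 27.3 and 35.0 CPM in PDGFRα- libraries 1 to 4. In PDGFRα+ libraries 1 to 4 it stood at 16.5, 18.4, 27.0 and 33.7 CPM. The difference lay in pairs 1 and 2, at 1.93-fold and 3.51-fold, while pairs 3 and 4 were nearly level at 1.01-fold and 1.04-fold. On the log2 scale the difference was -0.73 ± 0.31 without the block and -0.70 ± 0.28 with it (SE, edgeR adjusted p = 0.614 and 0.306). Without PDGFRα- library 2 it was -0.39. Exons of Pdgfc overlap the antisense gene Gm16000 by 147 bases.

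Pdgfa (ENSMUSG00000025856, chromosome 5, 138976014 to 138997370, minus strand), which encodes PDGF-A, stood at 12.7, 12.4, 15.9 and 24.5 CPM in PDGFRα- libraries 1 to 4. In PDGFRα+ libraries 1 to 4 it stood at 12.2, 0.410, 8.49 and 19.0 CPM. PDGFRα+ library 2, with 10 reads against 204 to 488 in the others, was far below the rest. The edgeR difference was -0.72 ± 0.79 on the log2 scale (SE, adjusted p = 0.970), with an interval from -2.51 to 1.08, and -0.31 without that library. With the block it was -1.23 ± 0.77 (SE, adjusted p = 0.649), and -0.44 without number 2. By limma-voom it was -1.57 without the block and -0.62 with it. The authors' deposited table lists -1.28 with an adjusted p of 0.188. Exons of Pdgfa overlap the antisense gene 6330403L08Rik by 813 bases.

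Pdgfb (ENSMUSG00000000489, chromosome 15, 79995874 to 80014977, minus strand), the gene of the endothelial and platelet ligand PDGF-B, had 1, 0, 0 and 196 reads in PDGFRα- libraries 1 to 4. In PDGFRα+ libraries 1 to 4 it had 43, 1, 34 and 0 reads. A count of 0 allows up to 3 reads, or 0.151, 0.234 and 0.223 CPM in PDGFRα- libraries 2 and 3 and PDGFRα+ library 4, for counting error only. Most reads thus came from a single library, PDGFRα- library 4. The same library had the highest sum of 6 endothelial markers, 399 CPM against 48.1 to 144 CPM in the other libraries. The 5 platelet and megakaryocyte markers summed to 8.34 CPM in it and to 0.860 to 22.4 CPM elsewhere, with Ppbp listed at 0. Only 2 of the 5 passed the filter on low counts. Exons of Gp1bb, which is in that sum, overlap Sept5 by 1902 bases on the same strand, so the sum may not measure platelet RNA alone. PDGFRα+ libraries 1 and 3 held the next highest Pdgfb counts at endothelial sums of 63.9 and 144 CPM. The part of these cells in the Pdgfb counts was not tested.

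**Figure D2:**
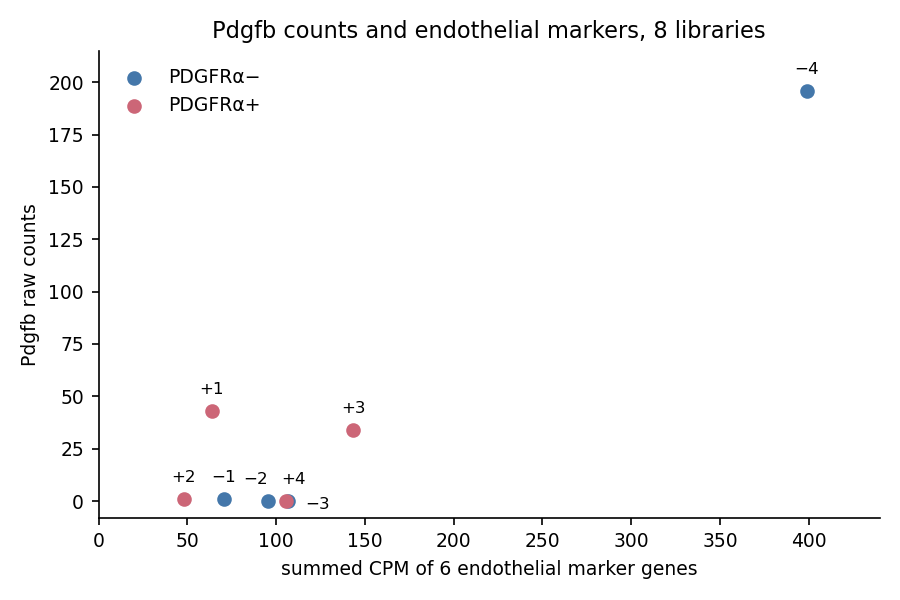
Raw Pdgfb counts (vertical axis) against the summed CPM of 6 endothelial marker genes (horizontal axis) in the 8 libraries, marked by sort and replicate number. PDGFRα- library 4 stands apart on both axes, at 196 reads and 399 CPM.

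The deposited values for Pdgfb point both ways. The authors' deposited table gives group means of 53 in PDGFRα- and 12 in PDGFRα+ of its scaled counts, and beside them a log2 fold change of 3.73, that is, higher in PDGFRα+, with an adjusted p of 0.215. Refitted without the filter, edgeR gave -2.004 without the block and 2.91 with it (adjusted p = 0.518 and 0.939). Without PDGFRα- library 4 the unblocked value was 4.88 (edgeR adjusted p = 0.568). No direction is given for Pdgfb here.

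**Figure D3:**
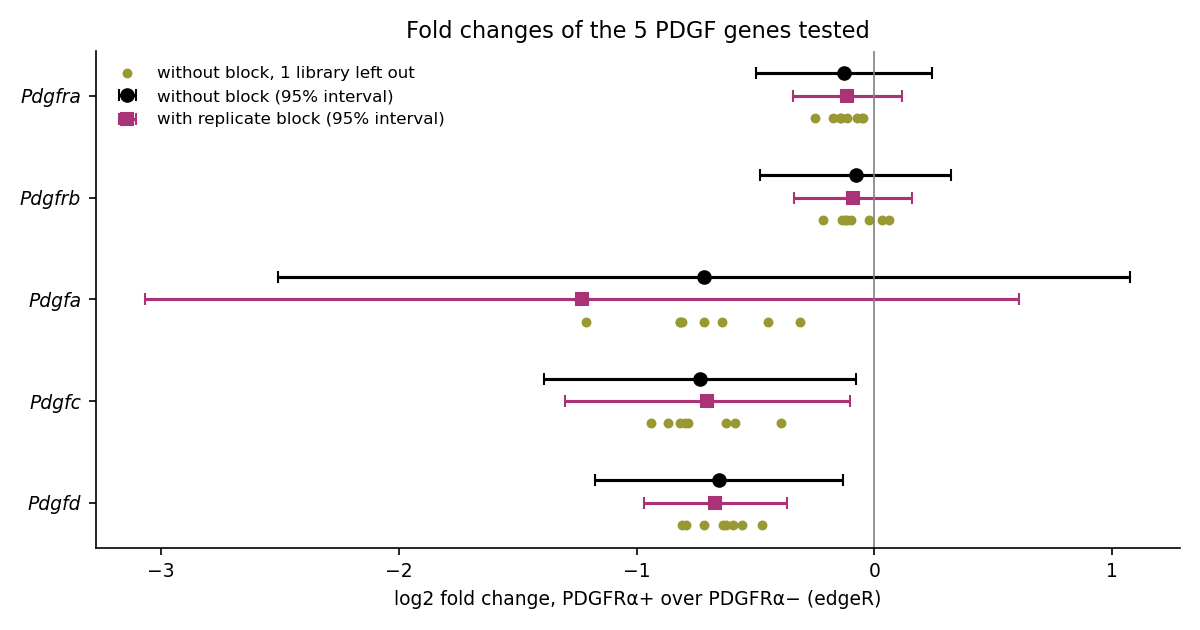
Log2 fold change of PDGFRα+ over PDGFRα- (horizontal axis) for the 5 PDGF genes tested, from edgeR without and with the replicate block, with 95% intervals, and without the block after leaving out each library. The Pdgfd intervals lie below 0, as do those of Pdgfc, and the Pdgfa intervals are the widest.

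The stretches before the transcription starts of the ligand genes that were lower in every pair are printed with that of Pdgfra, which was not. They are the 250 bases upstream of the RefSeq start (GRCm38.p6), in lower case with matches to a short list of promoter motifs in capitals. The motifs were the GC box GGGCGG, the CCAAT box CCAAT, the TATA box TATAAA and the EGR1 motif GCGGGGGCG, each read on both strands, and none of the matches printed overlap. RefSeq windows were matched for 4 of the 6 genes, Pdgfra, Pdgfa, Pdgfc and Pdgfd. Pdgfa has a pair of RefSeq starts, of which the upstream one is printed. Its window lies inside the GENCODE span of Pdgfa, which on the minus strand begins at 138997370. The windows lie at chr9:6168236-6168485 (plus strand) for Pdgfd, chr3:81036166-81036415 (plus) for Pdgfc, chr5:138994945-138995194 (minus) for Pdgfa and chr5:75152001-75152250 (plus) for Pdgfra.
Pdgfd: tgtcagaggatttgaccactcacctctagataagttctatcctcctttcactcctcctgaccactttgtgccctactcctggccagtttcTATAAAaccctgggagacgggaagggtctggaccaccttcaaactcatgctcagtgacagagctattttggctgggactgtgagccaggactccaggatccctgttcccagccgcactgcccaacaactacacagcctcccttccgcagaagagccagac
Pdgfc: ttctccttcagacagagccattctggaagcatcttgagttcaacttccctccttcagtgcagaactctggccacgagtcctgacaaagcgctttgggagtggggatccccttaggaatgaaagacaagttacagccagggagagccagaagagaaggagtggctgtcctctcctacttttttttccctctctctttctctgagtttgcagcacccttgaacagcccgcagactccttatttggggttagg
Pdgfa: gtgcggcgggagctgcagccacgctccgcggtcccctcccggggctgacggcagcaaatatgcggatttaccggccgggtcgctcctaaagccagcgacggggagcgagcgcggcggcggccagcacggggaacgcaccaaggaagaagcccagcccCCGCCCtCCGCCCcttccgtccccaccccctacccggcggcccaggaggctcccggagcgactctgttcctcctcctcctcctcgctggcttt
Pdgfra: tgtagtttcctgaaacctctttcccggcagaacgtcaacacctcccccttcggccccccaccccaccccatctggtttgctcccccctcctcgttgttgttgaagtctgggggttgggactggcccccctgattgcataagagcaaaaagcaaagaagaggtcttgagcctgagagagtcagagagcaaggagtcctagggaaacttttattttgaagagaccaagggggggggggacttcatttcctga

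The windows of Pdgfd, Pdgfc and Pdgfa had none of the 4 motifs in common. Pdgfd held 1 TATA box, at position -160 from the start, a match found in 12.4% of 32851 promoter windows of the same length. The printed Pdgfa window held 2 GC boxes, both on the other strand, and the window of its second start 1, against 32.7% of all windows with any. Neither the Pdgfc nor the Pdgfra window held any of the 4 motifs, and no CCAAT box (33.8% of windows) or EGR1 motif (2.57%) was found in any of them. The bases G and C made up 53.6% of the Pdgfd, 50.8% of the Pdgfc, 72.4% of the Pdgfa and 54.4% of the Pdgfra window, against a median of 52.4%. A match is a description of the letters and not a binding site.

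Per kilobase of exon, the order of mean levels over all 8 libraries was Pdgfra at 62.3, Pdgfrb at 42.3, Pdgfd at 21.6, Pdgfc at 6.24, Pdgfa at 4.23 and Pdgfb at 0.368 CPM per kilobase. Taking the longest transcript as the length gave the same order, with Pdgfra at 91.4. The ranges of Pdgfra and Pdgfrb overlapped across libraries (47.4 to 74.8 and 31.5 to 55.4), but within each library Pdgfra was higher. Pdgfd was 2.20-fold to 5.49-fold above Pdgfc in every library. Pdgfc and Pdgfa did not separate beyond their spread, with Pdgfa the higher in PDGFRα- library 4 and PDGFRα+ library 1. Among the tested genes with a length, Pdgfra ranked 392 of 15622, Pdgfrb 628 and Pdgfd 1391.

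Pdgfd RNA made up most of the ligand RNA in both fractions, by this measure of RNA and not of protein. Pdgfd took 62.4% to 73.8% of the summed ligand level per kilobase in PDGFRα- and 57.9% to 81.3% in PDGFRα+ libraries. The summed ligand level was 27.5, 44.5, 39.9 and 48.4 CPM per kilobase in PDGFRα- libraries 1 to 4 and at 17.6, 20.02, 29.8 and 31.9 in the PDGFRα+ ones. It was lower in the PDGFRα+ library of every pair, and the groups overlapped through PDGFRα- library 1. The summed receptor level overlapped throughout, at 86.2 to 130 and 81.1 to 118 CPM per kilobase. Receptors stood over ligands 1.78-fold to 4.00-fold in PDGFRα- and 2.54-fold to 5.88-fold in PDGFRα+ libraries, a ratio given without a test.

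**Figure D4:**
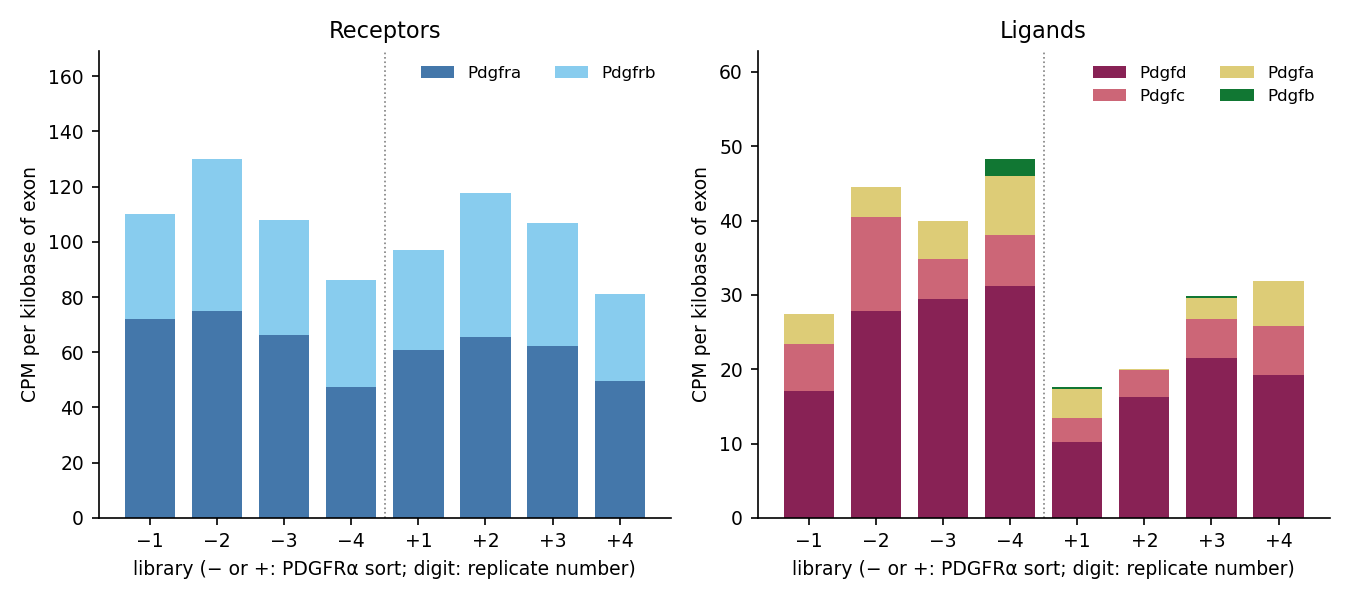
Receptor RNA (left) and ligand RNA (right) in CPM per kilobase of exon (vertical axes), stacked by gene, in PDGFRα- libraries (-1 to -4) and PDGFRα+ libraries (+1 to +4). Pdgfd is the largest ligand block in each library, and the ligand stack is lower in the PDGFRα+ library of each pair.

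Markers of fibroblast states are given beside the ligands. The list of PDGFRα-low fibroblasts or trophocytes (Cd81, Grem1, Rspo3, Cd34, Pi16 and Ackr4) summed to 1547 to 2200 CPM in PDGFRα- and 966 to 1398 CPM in PDGFRα+ libraries, without overlap, and 3 of 6 were called lower with the block (edgeR). The list of PDGFRα-high fibroblasts summed to 97.9 to 104 and 93.9 to 168 CPM, with 1 of 5 tested, Bmp5, called higher with the block (edgeR). Exons of Bmp5 overlap the antisense gene Gm26903 by 1878 bases, and reads of that overlap cannot be assigned. Of the 5 fibroblast markers given above, Col1a1, Col1a2 and Col3a1 were called lower with the block, and their groups did not overlap, while those of Dcn and Lum did. Over all tested genes edgeR with the block called 2.27% in either direction and 0.933% as lower, and 2.36% had groups without overlap as lower. Without the block edgeR called none of these markers, where it called 0.243% of all tested genes. Their part in the Pdgfd and Pdgfc levels was not tested. In bulk libraries, fewer cells of a type and less RNA per cell cannot be told apart.

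Genes whose level over the 8 libraries ran most like that of a member are given as a description, out of 6249 tested genes with a mean of at least 20 CPM. For Pdgfra the most alike were the elastin gene Eln (Pearson r = 0.989 of log2 CPM, n = 8 libraries), Scamp2 and Gabarap. For Pdgfrb they were Ubxn6 (0.967), Dcun1d4 and Dpysl2, and for Pdgfd they were Tcp11l2 (0.969), Pank4 and Tgfbi, which encodes a collagen-binding matrix protein. Pdgfc ran most like the cathepsin gene Ctsf (0.955), Pgm5 and Appl1, and Pdgfa most like Fbxo33 (0.978), the adhesion gene Cadm1 and the amino acid transporter gene Slc7a5. The points share library depth and composition. For Pdgfa they include PDGFRα+ library 2, at 0.410 CPM against 8.49 to 24.5 CPM elsewhere. Its r values may rest largely on that library, and r without it was not computed. Between members, r was 0.63 for Pdgfra with Pdgfrb and 0.70 for Pdgfc with Pdgfd, and it was -0.57 for Pdgfa with Pdgfrb and -0.32 for Pdgfa with Pdgfra.

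Around the ligands and receptors, 49 further genes of the pathway were tested in 6 lists. Without the block edgeR called none, where it called 0.243% of all tested genes. It gave 9 of the 49 an unadjusted p under 0.05. Over all genes 1087 of 15643 had one, or 6.95%, a smaller share. DESeq2 called 3, Spry1 as higher and Lrp6 and Csf1r as lower, where it called 1.37% of all genes, and limma-voom called 0, where it called 0.192%. With the block edgeR called 1 as higher and 3 as lower, of 355 calls among all genes, where it called 2.27% of them in either direction and 0.933% as lower. The median log2 fold change of the 49 was -0.05 without the block, beside -0.01 over all genes.

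The 3 genes that edgeR called lower with the block over all libraries were among the 5 of the list of co-receptors and binding proteins. Pdgfrl encodes a secreted protein that resembles the extracellular part of a PDGF receptor. It stood at 45.1, 61.1, 76.7 and 55.0 CPM in PDGFRα- libraries 1 to 4 and at 22.3, 36.2, 32.4 and 40.6 CPM in PDGFRα+ libraries 1 to 4, without overlap, as 5.05% of tested genes were. Its log2 fold change with the block was -0.86 ± 0.18 (SE, edgeR adjusted p = 0.0178, and 0.217 without the block).

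Lrp6, which encodes a WNT co-receptor also described as a partner of PDGFRβ, stood at 608, 693, 572 and 637 CPM in PDGFRα- libraries 1 to 4. In PDGFRα+ libraries 1 to 4 it stood at 422, 428, 451 and 430 CPM, well below all of them. The blocked log2 difference was -0.53 ± 0.11 (SE, edgeR adjusted p = 0.0165, and 0.199 without the block). Sparc, whose secreted matrix protein binds PDGF, was the most abundant gene of the list per kilobase and stood at 8015 to 11293 CPM in PDGFRα- and 6851 to 7997 CPM in PDGFRα+ libraries. The blocked log2 difference was -0.46 ± 0.10 (SE, edgeR adjusted p = 0.0278, and 0.400 without the block). None of these 3 was called with the block without number 3 (adjusted p of 0.0821 to 0.234), nor without number 1 (0.0627 to 0.117). Without number 2 Sparc was not called (0.0727) and without number 4 Lrp6 was not (0.0637).

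Spry1, which encodes a Sprouty inhibitor of receptor tyrosine kinase signalling to ERK, belongs to the list of receptor attenuation and was the 1 gene of the 49 that edgeR called higher with the block over all libraries. It stood at 21.7, 20.2, 12.3 and 41.6 CPM in PDGFRα- libraries 1 to 4 and at 55.3, 55.3, 49.2 and 80.0 CPM in PDGFRα+ libraries 1 to 4. Each PDGFRα+ library was above every PDGFRα- library. The log2 difference was 1.43 ± 0.20 with the block (SE, edgeR adjusted p = 7.8e-04) and 1.32 ± 0.32 without it (0.150), and the blocked call held without each of the 4 numbers. Exons of Spry1 overlap Gm42922 on the other strand by 710 bases. Spry2, the highest of this list per kilobase, stood at 55.2 ± 19.3 and 73.7 ± 11.0 CPM (SD, n = 4, edgeR adjusted p = 0.847 without the block).

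In the other lists edgeR called no gene over all libraries, with or without the block, after the filter on low counts. Without the filter it called Csf1r (adjusted p = 5.8e-06), and so did the block without number 1 (edgeR adjusted p = 0.0272). Counts by other tools are given without the block unless stated. Without it DESeq2 called 1.37% and limma-voom 0.192% of all genes tested. In the block DESeq2 called 789 of all genes and 10 of the 49 pathway genes. There limma-voom called 582 of all genes and 9 of the 49. Of all tested genes 6.95% had an unadjusted p under 0.05 by edgeR without the block, the share to set beside the counts below. Of 7 protease genes that process or activate ligands, the most abundant per kilobase, Pcsk5, stood at 495 ± 103 and 571 ± 124 CPM, with 0 of 7 at an unadjusted p under 0.05 by edgeR and none called by DESeq2 or limma-voom. Of 17 genes of receptor-proximal signalling the Src-family kinase gene Fyn was the highest per kilobase, at 275 ± 54.5 and 264 ± 31.1 CPM, and Nck2, an adaptor gene at 23.9 ± 6.25 and 39.8 ± 7.18 CPM, was the 1 with an unadjusted p under 0.05 by edgeR. DESeq2 and limma-voom called none of the 17 without the block, and limma-voom called Nck2 with it (adjusted p = 0.0465). Of 5 VEGF ligand genes, relatives of the PDGF genes, Vegfc was the highest per kilobase, at 84.5 ± 19.0 and 65.6 ± 19.9 CPM, and 2 had an unadjusted p under 0.05 by edgeR, Vegfd at 41.2 ± 7.06 and 22.9 ± 6.03 CPM and Pgf at 14.04 ± 5.85 and 25.5 ± 6.81 CPM. Neither was called by DESeq2 or limma-voom without the block. With it Vegfd was called by both (DESeq2 adjusted p = 0.0162, limma-voom adjusted p = 0.0165) and Pgf by DESeq2 (adjusted p = 0.0330). The 6 related receptor kinase genes included the endothelial gene Flt1, the highest by mean per kilobase, at 60.8 ± 104 and 14.8 ± 14.8 CPM. That mean rests on PDGFRα- library 4 at 216 CPM, and in PDGFRα- libraries 1 and 2 Flt1 stood at 1.87 and 0.302 CPM, below Csf1r at 4.80 and 6.64 CPM. In this list 1 gene, the macrophage receptor gene Csf1r at 18.5 ± 16.5 and 2.99 ± 1.62 CPM, had an unadjusted p under 0.05 by edgeR. Without the block Csf1r was called by DESeq2 (adjusted p = 0.00273) and not by limma-voom. With it Csf1r was called lower by both (DESeq2 adjusted p = 0.00381, limma-voom adjusted p = 0.0399). So was Kdr (DESeq2 adjusted p = 0.0322, limma-voom adjusted p = 0.00470). In the block Kit was called lower by DESeq2 (adjusted p = 0.0112) and Flt1 by limma-voom (adjusted p = 0.00265). The leukocyte markers, which include Ptprc, summed to 9.36 to 38.0 CPM in PDGFRα- and 7.54 to 13.8 CPM in PDGFRα+ libraries, and their part in the Csf1r level was not tested. Of these markers Itgam was listed at 0 and added nothing to the sum. Its exons share 3450 bases on the same strand with another entry of that name, so its 0 is no measure of the gene. The genes given in these last sentences other than the highest one of each list per kilobase were singled out after their values were seen.

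**Figure D5:**
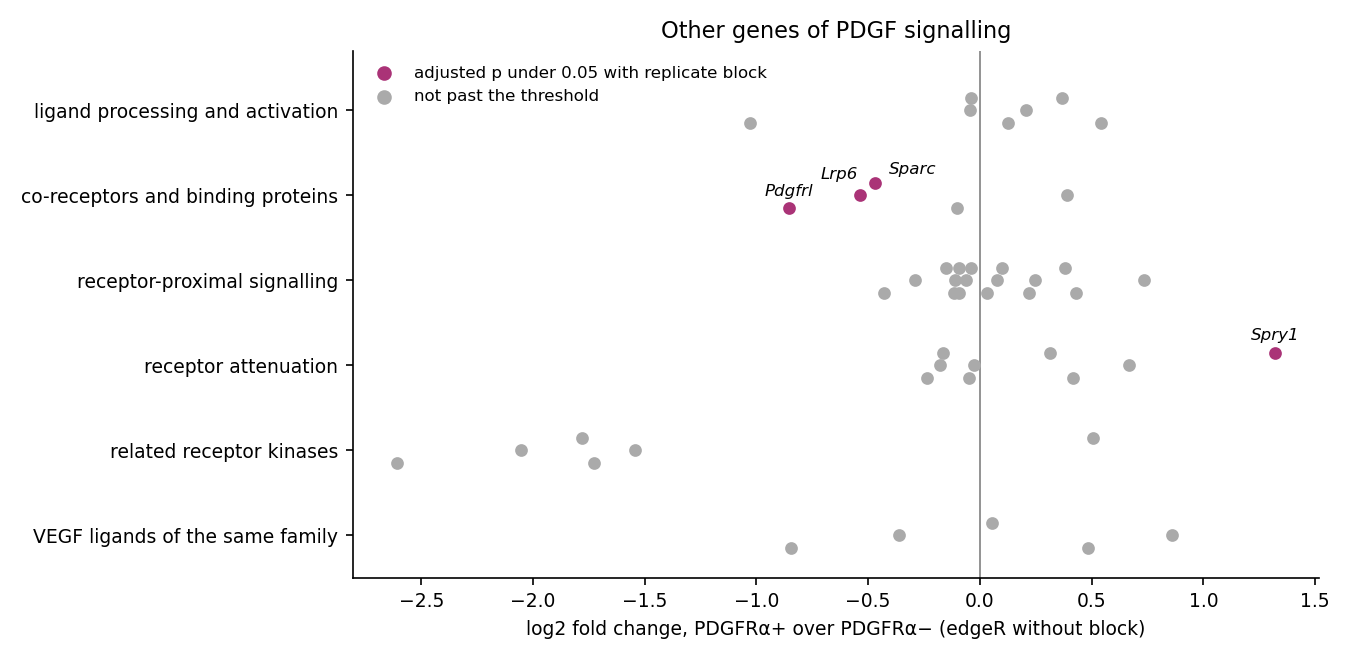
Log2 fold change of PDGFRα+ over PDGFRα- from edgeR without the block (horizontal axis) for 49 genes of PDGF signalling in 6 lists (rows), coloured where they passed an adjusted p of 0.05 with the replicate block. Pdgfrl, Lrp6 and Sparc lie to the left and Spry1 to the right.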

How the data were processed

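Per the labels' protocols, sorted cells were lysed and a low-input SMARTer Stranded kit turned total RNA into libraries for an Illumina NextSeq. Per the submitters' processing notes, cutadapt 3.4, STAR 2.7.3a, featureCounts 2.0.1 and DESeq2 were used on GRCm38. The deposited table holds raw whole-number counts, and also the authors' size-factor-scaled values, read here as a score, and the fold change as a ratio and as log2, p-value and adjusted p-value of the authors' comparison. Reads amplified from so little RNA are not independent molecules, so limits from counts cover counting error only.

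The quasi-likelihood F test (edgeR 4.0.16, R 4.3.3) was run on the counts with robust dispersions, TMM factors and filterByExpr (15643 genes, Benjamini-Hochberg adjusted p threshold 0.05) and group as the only term. Alternatives were RLE and upper-quartile factors, no filter, DESeq2 1.42.0, limma-voom 3.58.1, the replicate number as a block, and leaving out each library. The SE is the log2 fold change divided by the root of F. The fits were tested on simulated data. Lengths, positions and exon overlaps came from GENCODE M21 (GRCm38), which held 53706 of the 53801 identifiers, and promoters from RefSeq. Named were all members, the pathway genes called in either edgeR fit, the highest gene per kilobase of each pathway list, and the 3 genes most alike each tested member. The members and gene lists were chosen with earlier results of these data known, and so were the tests. The pairing check is given with the sensitivity of the results.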

Additional observations from a re-analysis of the deposited data

Results flagged for a closer look

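In 6 of 68 groups checked, a library stood apart from the other 3 by more than the 95% critical value of Dixon's test. Chance alone flags about 1 in 20 where values are independent and normally spread. The groups share libraries and genes, such as Pecam1 in the endothelial sum, so the 6 cannot be set against that rate. PDGFRα- library 4 was the highest of its group in 4 of the 6. Pdgfb stood there at 9.85 CPM, with the next library at 0.0407 CPM. Flt1, an endothelial VEGF receptor gene, stood at 216 CPM against 24.8 CPM in the next library, Pecam1 at 132 against 15.4 CPM, and the summed endothelial markers at 399 against 107 CPM. In the PDGFRα+ group, the ratio of Pdgfc to Pdgfa per kilobase was 27.5 in library 2, where Pdgfa had 10 reads, against 1.95 in the next library. The mesothelial markers summed to 13.4 CPM in PDGFRα+ library 4, against 1.00 CPM in the next library.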

How the results depend on the processing

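Pdgfra, Pdgfa, Pdgfc and Pdgfd kept a negative log2 fold change in every setting run. With 1 library left out, the values ran from -0.25 to -0.05 for Pdgfra, -0.21 to 0.059 for Pdgfrb (reversed at 0.059 and 0.033), -1.21 to -0.31 for Pdgfa, -0.94 to -0.39 for Pdgfc and -0.81 to -0.47 for Pdgfd, and no member was called. Same-numbered libraries correlated at 0.02 to 0.25 in their deviations from the group means, with the lowest value, for number 3, under 0.1. Each PDGFRα+ library correlated best with the PDGFRα- library of its number. The reverse held except for PDGFRα- library 3, which correlated best with PDGFRα+ library 4. An edgeR test of the number passed 669 of 15643 genes, Pdgfd among them (adjusted p = 0.0372). The libraries thus differed by number in part, but what a number stands for is not stated, so the numbers alone do not establish a pairing. Dispersions in the authors' deposited table lay within 8.7e-04% of a DESeq2 fit holding both terms. With the replicate block Pdgfd was called at -0.67, and also with DESeq2 (-0.68), limma-voom (-0.66) and RLE factors (-0.68) in the block, at adjusted p values of 0.00131, 0.00989 and 0.0174. With 1 number left out of the block it ran from -0.74 to -0.63 (edgeR adjusted p = 0.0486 to 0.0974). The blocked settings beyond the first were chosen after seeing the data.

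Of all genes 38 were called, against 277 without the filter, 205 by DESeq2, 355 with the block and 789, 582 and 348 with DESeq2, limma-voom and RLE factors in the block. It was 7 to 49 with 1 library left out and 99 to 300 with 1 number left out of the block (281 without number 2). The co-receptor count was 0, and 1 without the filter or by DESeq2, 3 with the block and with each of its 3 other tools, and 0 to 2 with a number left out. The attenuation count was 0, and 1 without the filter, by DESeq2, with the block, with limma-voom or RLE factors in it, with any number left out of it and without PDGFRα- library 4, and 2 by DESeq2 in the block. The kinase count was 0, and 1 without the filter or by DESeq2, 3 by DESeq2 or limma-voom in the block, and 0 to 1 with a number left out. By limma-voom in the block the receptor-proximal count was 1 and the VEGF count 1, and by DESeq2 in it the VEGF count was 2. The cause of these changes was not tested. Pdgfb has a value only without the filter. Its 0 to 196 reads per library limit any statement on it.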
